A study of Mus musculus with 30 samples.

Results

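The genes described here are 9 that set, keep or remove methyl groups on cytosine in mouse DNA: Dnmt1, Dnmt3a, Dnmt3b, Dnmt3l, Tet1, Tet2, Tet3, Uhrf1 and Tdg. They were chosen by name, as the rows of the count table whose identifiers match those symbols, and all 9 were found among 55421 genes. Polyadenylated RNA was sequenced from E14 mouse embryonic stem cells, an XY line of 129P2/Ola origin, grown in serum with LIF and inhibitors of MEK and GSK3. The study compared acute loss of cohesin cofactors, either both PDS5 proteins or WAPL, with and without loss of NIPBL. Cohesin is the ring complex that extrudes chromatin loops, NIPBL drives extrusion, and WAPL and PDS5 proteins help release cohesin from DNA.

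The 30 libraries fall into 10 groups of 3, from 5 lines that all carry the plant protein Tir1, and each line bears the name of 1 clone. The TIR1 line has no degron fusion. The PDS5AB line carries PDS5A-AID and PDS5B-AID, and the WAPL line carries WAPL-AID, where AID is a tag that lets Tir1 send the fused protein to degradation once auxin is present. The PDS5AB-NIPBL and WAPL-NIPBL lines add NIPBL-FKBP, a fusion degraded on addition of dTAG-13, and RAD21-Halo, a tag on a cohesin subunit, so these combined lines also differ from the single-cofactor lines by the Halo tag. Each line was sampled untreated and after 24 h with auxin at 500 µM, to which dTAG-13 at 500 nM was added in the combined lines. The auxin-treated TIR1 cells therefore control for auxin, and no group received dTAG-13 without a degron. Protein levels were not analysed here.

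DNA methylation in mammals is laid down on cytosines followed by guanine by the de novo methyltransferases DNMT3A and DNMT3B, helped by DNMT3L, a relative with no catalytic activity of its own. After replication, UHRF1 binds hemimethylated DNA and brings in DNMT1, which copies the pattern to the new strand. TET1, TET2 and TET3 oxidise 5-methylcytosine to 5-hydroxymethylcytosine and further forms, and TDG cuts out the most oxidised ones so that base excision repair can restore cytosine. Embryonic stem cells held with MEK and GSK3 inhibitors are known for low DNA methylation, and Tet1, Tet2 and Dnmt3l are known as genes of pluripotent cells.

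In the deposited gene models (GENCODE vM23 on GRCm38), Dnmt1 (ENSMUSG00000004099.16) lies on chromosome 9 from 20907209 to 20959888, minus strand, with 7377 exon bases. Dnmt3a (ENSMUSG00000020661.15) lies on chromosome 12 from 3806007 to 3914443, plus strand, with 16642 exon bases, and Dnmt3b (ENSMUSG00000027478.15) on chromosome 2 from 153649450 to 153687730, plus strand, with 5106. Chromosome 10 holds Dnmt3l (ENSMUSG00000000730.13, 78041947 to 78063622, plus strand, 2988 exon bases), Tet1 (ENSMUSG00000047146.17, 62804570 to 62908996, minus strand, 15457) and Tdg (ENSMUSG00000034674.18, 82629828 to 82650799, plus strand, 5374). Tet2 (ENSMUSG00000040943.12) lies on chromosome 3 from 133463679 to 133545139, minus strand, with 16870 exon bases, and Tet3 (ENSMUSG00000034832.15) on chromosome 6 from 83362373 to 83459084, minus strand, with 16695. Uhrf1 (ENSMUSG00000001228.14) lies on chromosome 17 from 56303321 to 56323486, plus strand, with 4259 exon bases. Exons of Dnmt3l share 67 bases (2.24% of its exon length) with Aire on the opposite strand, and those of Tdg share 367 bases (6.83%) with Glt8d2. Counting ignored strand, so outside the dropped shared bases antisense fragments would add to a gene, and this was not tested. Tdg, Dnmt3a and Dnmt3l have annotated pseudogene copies, whose shared fragments were dropped, so their levels are uncertain to that extent.

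The promoters of the 4 genes with the largest spread between groups are shown because they differ in the sequence that these enzymes act on, the dinucleotide CG, written in capitals. Each run holds 250 bases before and 50 after a RefSeq transcript start (GRCm38.p6), 5′ to 3′ on the gene's own strand.
Tet2, chr3:133544341-133544640, minus strand: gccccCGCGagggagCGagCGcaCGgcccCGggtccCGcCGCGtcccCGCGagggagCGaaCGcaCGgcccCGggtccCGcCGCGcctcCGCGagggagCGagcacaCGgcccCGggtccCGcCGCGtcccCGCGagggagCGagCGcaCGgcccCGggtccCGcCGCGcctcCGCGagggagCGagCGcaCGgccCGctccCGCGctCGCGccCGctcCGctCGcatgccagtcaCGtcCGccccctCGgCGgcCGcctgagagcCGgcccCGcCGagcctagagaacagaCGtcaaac
Dnmt3a, first of 3 starts, chr12:3806730-3807029, plus strand: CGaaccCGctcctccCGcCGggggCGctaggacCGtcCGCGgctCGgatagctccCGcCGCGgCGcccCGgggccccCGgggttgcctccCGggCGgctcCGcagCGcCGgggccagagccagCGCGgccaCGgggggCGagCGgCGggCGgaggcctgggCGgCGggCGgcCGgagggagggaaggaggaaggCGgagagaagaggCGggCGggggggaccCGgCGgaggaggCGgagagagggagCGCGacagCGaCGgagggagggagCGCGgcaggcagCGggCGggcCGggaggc
Uhrf1, first of 2 starts, chr17:56303087-56303386, plus strand: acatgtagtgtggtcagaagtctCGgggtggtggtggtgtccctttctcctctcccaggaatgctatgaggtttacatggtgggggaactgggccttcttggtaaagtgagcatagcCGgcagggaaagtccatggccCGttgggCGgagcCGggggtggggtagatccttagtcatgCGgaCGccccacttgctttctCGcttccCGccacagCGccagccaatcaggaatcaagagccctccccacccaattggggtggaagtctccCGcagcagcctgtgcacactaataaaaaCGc
Dnmt3l, first of 3 starts, chr10:78042037-78042336, plus strand: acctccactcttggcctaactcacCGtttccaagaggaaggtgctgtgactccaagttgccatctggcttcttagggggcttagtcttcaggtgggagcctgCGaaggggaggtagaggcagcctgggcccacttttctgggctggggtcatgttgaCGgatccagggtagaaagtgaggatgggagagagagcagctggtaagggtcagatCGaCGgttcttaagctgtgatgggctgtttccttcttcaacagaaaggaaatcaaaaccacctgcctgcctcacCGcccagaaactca

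The Tet2 window holds 57 CG dinucleotides, more than 99.8% of the 32851 mouse promoter windows of the same length, whose median is 7. The Dnmt3a window holds 46, and the other 2 Dnmt3a starts have 47 and 18. The Uhrf1 window holds 12, but the second Uhrf1 start has 33, more than 91.4% of all windows. The Dnmt3l window holds 6, and the other 2 Dnmt3l starts have 4 and 3. Among the remaining members the count runs from 2 at the first of 3 Dnmt1 starts to 33 at the third start, with 17 for Tet1, 22 for Tet3, 26 for Tdg and 30 for Dnmt3b. All 16 windows of the 9 members were searched on both strands for 3 motifs. GCGTG, the core of the xenobiotic response element, was found at the third Dnmt1 start, the third Dnmt3l start, the second Uhrf1 start and the Tdg start, and occurs in 32.4% of all windows. The string TTTCCCGC, a form of the E2F site (1.07% of all windows), and a core motif of CTCF (2.43%) were not matched in these windows. Other forms of the E2F site were not searched, so these windows may hold them. DNA methylation at these promoters was not measured in the files used here.

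Libraries held 19632704 to 45539021 counted fragments, and 19868 genes, all 9 members among them, passed the filter on low counts. Levels below are CPM, fragment counts scaled to library size with TMM factors. The labels number the libraries, and these numbers put the PDS5AB and untreated TIR1 libraries between 1 and 21, the WAPL and combined lines between 25 and 42, and the auxin-treated TIR1 libraries at 43 to 45. The auxin effect in TIR1 cells, and the untreated WAPL and combined lines set against untreated TIR1 cells, therefore cross a break in that numbering, and group and numbering cannot be told apart there. Summed levels of 6 pluripotency markers ran from 3333 to 6201 CPM and were lower after treatment in all 5 lines (3333 to 3990 CPM in treated against 5091 to 6201 in untreated PDS5AB cells). The 6 primitive endoderm markers summed to 58.5 to 71.3 CPM in treated against 23.8 to 26.8 in untreated PDS5AB cells, and the 6 two-cell-like markers to 59.7 to 81.9 against 23.7 to 33.9. In WAPL cells they moved from between 10.1 and 13 to between 37.6 and 53.4 CPM and from between 1.38 and 3.12 to between 9.25 and 12.9 CPM. Endoderm markers also moved in PDS5AB-NIPBL cells, from between 10.1 and 12.7 to between 29.9 and 35.6 CPM, and in WAPL-NIPBL cells, from between 5.71 and 6.06 to between 14.2 and 15.7 CPM, and in TIR1 cells, from between 7.62 and 8.23 to between 10.02 and 11.1 CPM. Two-cell-like markers were at 0.0983 to 0.179 in untreated and 0.319 to 0.606 CPM in treated PDS5AB-NIPBL cells, and at 0.379 to 0.599 and 0.858 to 1.22 CPM in WAPL-NIPBL cells. The 5 trophoblast markers, of which Tfap2c is at 17.2 to 121 CPM and Elf5 reached at most 0.355, moved in the direction of Tet2 in 4 lines. They were at 74.9 to 81.9 CPM in untreated and 127 to 134 in treated TIR1 cells, 77.6 to 95.4 and 28.5 to 31.9 in WAPL cells, 50.6 to 56.7 and 30.6 to 34.4 in PDS5AB-NIPBL cells, and 60.9 to 68.5 and 30.6 to 35.7 in WAPL-NIPBL cells, against 46.9 to 48.7 and 52.1 to 55.4 in PDS5AB cells. Fibroblast markers went from between 13.5 and 14.1 to between 4.38 and 5.37 CPM in WAPL cells. They went from between 14.1 and 17.6 to between 10.3 and 13.3 CPM in TIR1 cells. In WAPL-NIPBL cells they went from between 10.3 and 12.4 to between 7.52 and 8.18 CPM. They rose from between 16.9 and 19.1 to between 19.5 and 21.9 CPM in PDS5AB cells, and overlapped in PDS5AB-NIPBL cells. The 5 neural markers went from between 191 and 220 to between 150.2 and 168 CPM in TIR1 cells, and from between 131 and 139 to between 144 and 151 in PDS5AB cells and from between 161 and 189 to between 214 and 249 in PDS5AB-NIPBL cells. The 5 primitive streak markers went from between 9.77 and 13.1 to between 15.5 and 18.3 CPM in WAPL cells and from between 14.7 and 17.3 to between 19 and 23.7 in WAPL-NIPBL cells. No marker was at 3 counts or fewer in every library, and the part of these cells in the results below was not tested. In such bulk samples fewer cells of a type and less RNA per cell cannot be told apart.

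Among untreated TIR1 cells Uhrf1 was the most abundant member per exon length, at 190 ± 8.97 CPM per kb (SD, n = 3), and Tet3 the least, at 0.969 ± 0.122. Dnmt1 followed Uhrf1 at 59.8 ± 3.70 CPM per kb. Dnmt3l (42.9 ± 2.82) and Dnmt3b (39.8 ± 2.18) came next and overlapped. Tet1 stood at 33.7 ± 3.09, Tet2 at 13.5 ± 1.35, Tdg at 6.61 ± 0.593 and Dnmt3a at 4.94 ± 0.337 CPM per kb. The order was not the same in every untreated line, and Dnmt3l moved most. It ranked second in PDS5AB cells at 103 ± 15.1 CPM per kb, above Dnmt1, and was the fifth in WAPL-NIPBL cells at 25.3 ± 3.84. Uhrf1 was first and Tet3 last in all 5 untreated groups.

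**Figure D1:**
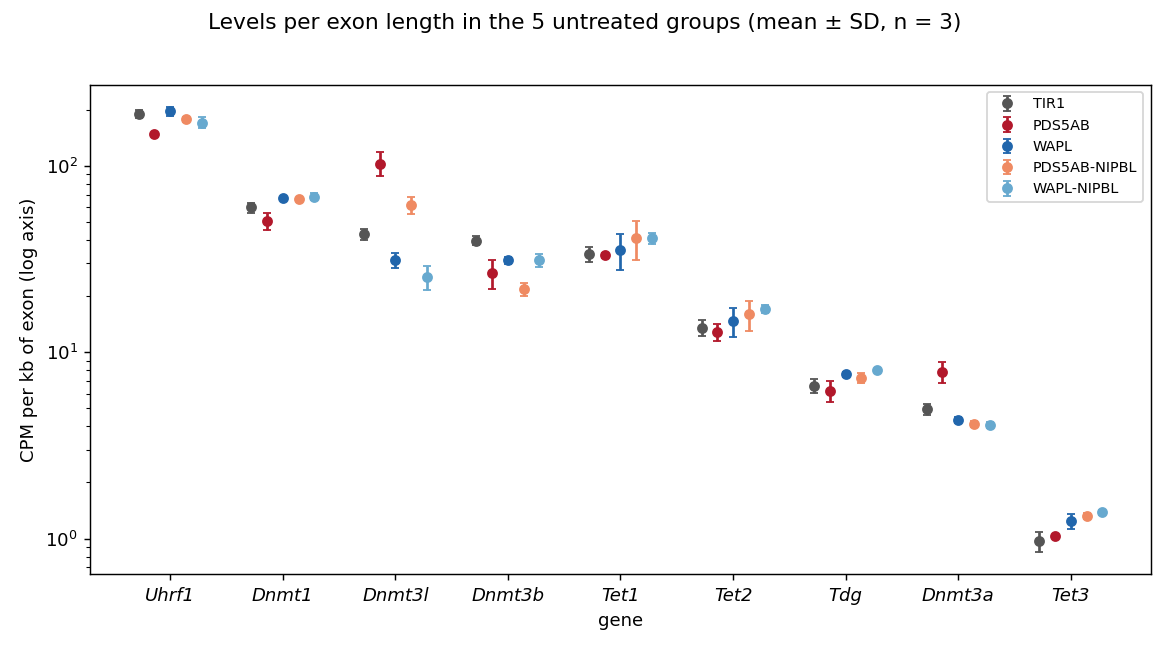
Mean ± SD (n = 3) of TMM-scaled CPM per kb of exon, on a log axis, for the 9 genes in the 5 untreated groups. Uhrf1 sits highest and Tet3 lowest in each line, and the Dnmt3l points spread most, from 25.3 in WAPL-NIPBL cells to 103 in PDS5AB cells.

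Treatment moved the members differently. Uhrf1 and Tet2 fell in all 4 degron lines and did not pass the test in TIR1 cells, whereas Dnmt3l fell in TIR1 cells and in 3 of the 4 degron lines. Dnmt3a fell with auxin in TIR1 cells and rose in PDS5AB and WAPL cells, and Tet3 rose in the latter 2 lines. By edgeR's quasi-likelihood test at an adjusted p under 0.05, 3 of 9 members fell and 0 rose in TIR1 cells, where 19.9% of all tested genes were called (9.59% lower, 10.4% higher). In PDS5AB cells 2 rose and 5 fell, against 46.0% of all genes called (25.8% higher, 20.2% lower). In WAPL cells 2 rose and 3 fell, against 32.8% (17% higher, 15.8% lower). In PDS5AB-NIPBL cells 4 fell and 0 rose, against 19.5% (8.06% lower, 11.4% higher), and in WAPL-NIPBL cells 3 fell and 0 rose, against 8.57% (3.45% lower, 5.11% higher). With 9 members, these shares are given beside the background and not tested against it. The labels do not say whether the 3 replicates of a group were separate cultures, so the p-values measure the spread between these libraries, which may be technical. With the replicate number as a block within each line, 8 members were called in WAPL cells and 6 in WAPL-NIPBL cells, in a fit that called 8960 and 4152 of the 19868 genes there. It called 8 in PDS5AB and 6 in PDS5AB-NIPBL cells, with 11255 and 6377 of all genes.

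**Figure D2:**
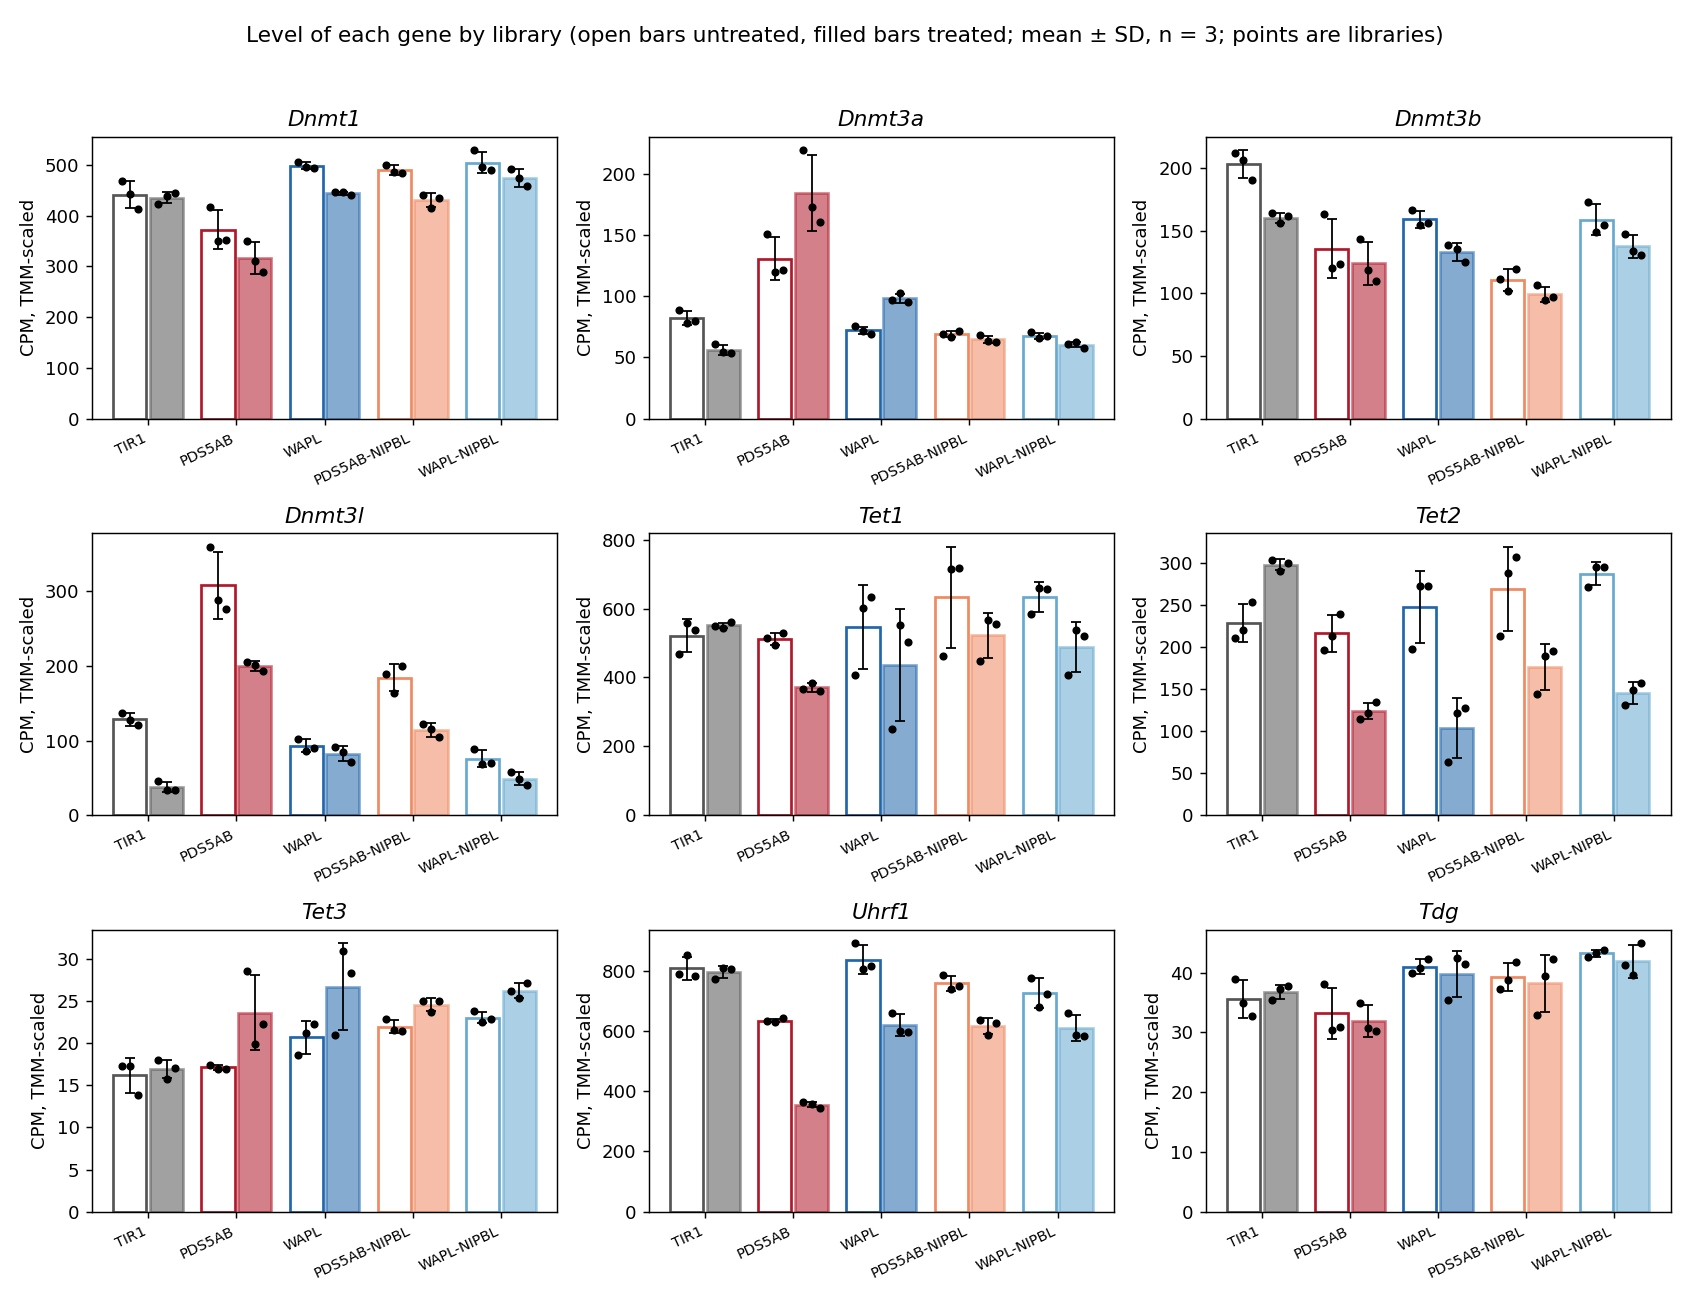
TMM-scaled CPM of each gene in the 10 groups, with bars at the mean, error bars of 1 SD (n = 3), points for the libraries, open bars for untreated and filled bars for treated cells. Dnmt3l spans 8.19-fold between its highest and lowest group means, and Tdg 1.35-fold.

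**Figure D3:**
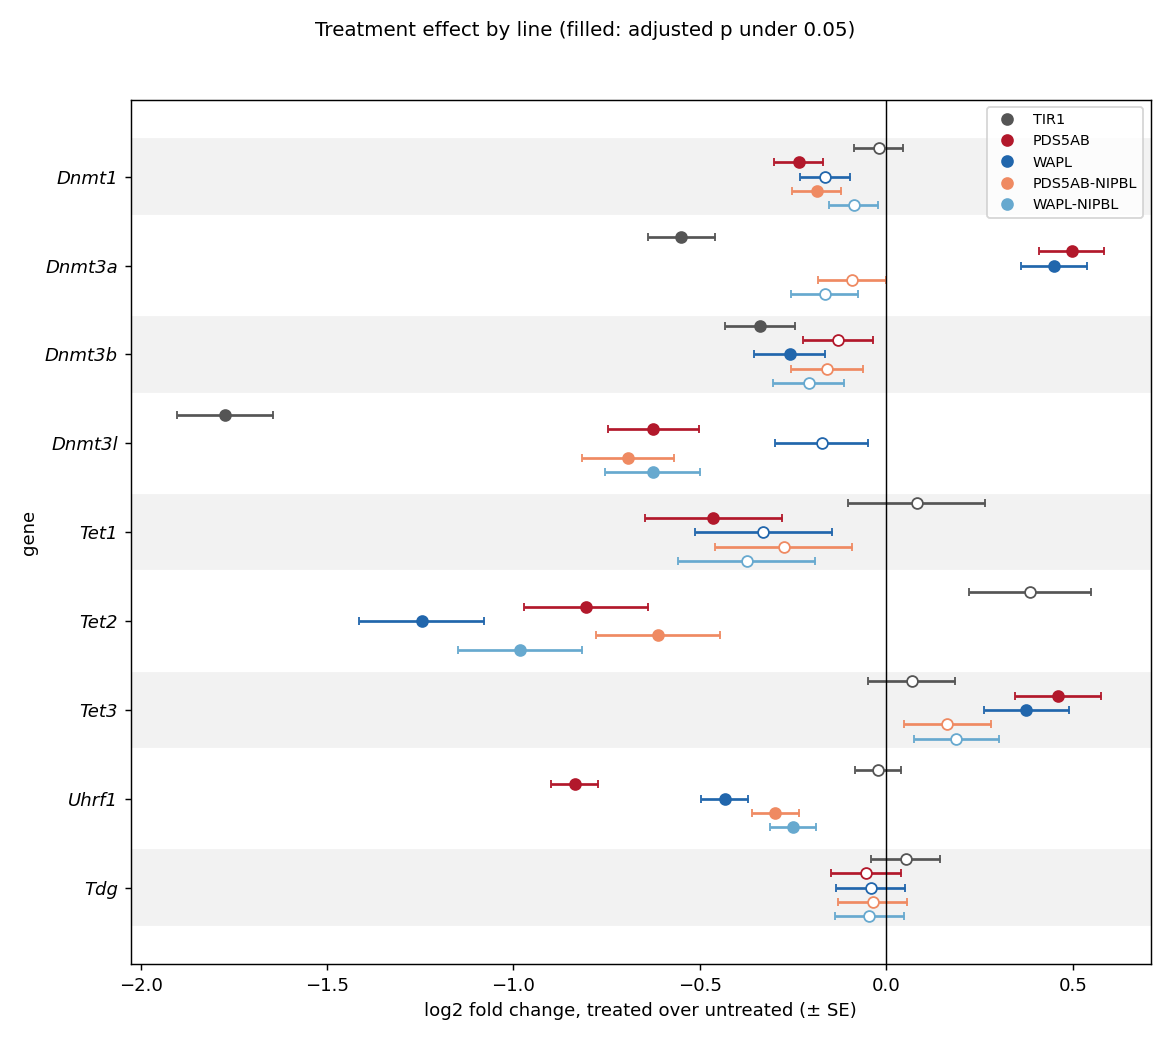
Log2 fold change of treated over untreated cells (± SE) for each gene in each line, with filled points at an adjusted p under 0.05. Tet2 lies left of 0 in the 4 degron lines and right of 0 in TIR1 cells, and Dnmt3a lies right of 0 only in the PDS5AB and WAPL lines.

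Of the maintenance pair, Uhrf1, the reader of hemimethylated DNA, changed most. In untreated PDS5AB cells its libraries stood at 633, 630 and 642 CPM, and in treated ones at 365, 357 and 346 CPM. The groups were far apart, and Uhrf1 fell by 44.0% (log2 fold change -0.84, SE 0.06, adjusted p = 9.4e-12). WAPL cells went from 892, 806 and 815 to 662, 601 and 598 CPM, a log2 change of -0.43 (SE 0.06, adjusted p = 2.2e-06), again with no overlap. PDS5AB-NIPBL cells went from 787, 739 and 751 to 638, 588 and 626 CPM (log2 -0.30, adjusted p = 0.00073). WAPL-NIPBL cells went from 777, 679 and 722 to 661, 587 and 584 CPM (log2 -0.25, adjusted p = 0.0085), and without the first untreated, the second treated or the third treated library the adjusted p rose to at most 0.091. TIR1 cells held 791, 853 and 784 CPM untreated and 774, 810 and 808 with auxin, groups that overlapped (log2 -0.02, SE 0.06).

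Dnmt1, the maintenance methyltransferase, moved less. It fell by 15.1% in PDS5AB cells, from 373 ± 38.1 to 316 ± 31 CPM (log2 -0.24, SE 0.07, adjusted p = 0.0045), and the adjusted p reached 0.072 without the first untreated or the third treated library. In PDS5AB-NIPBL cells it fell from 490 ± 9.06 to 430 ± 13.8 CPM (log2 -0.19, adjusted p = 0.046), a call that ended with any of the 6 libraries left out (adjusted p 0.083 to 0.19), with RLE size factors (0.055) and with no filter on low counts (0.085). In WAPL cells Dnmt1 stood at 506, 495 and 493 CPM untreated and 446, 446 and 441 treated. These groups did not overlap, yet the log2 difference of -0.17 missed the threshold (adjusted p = 0.056) and passed it with the replicate block within line (0.00081). In WAPL-NIPBL cells (log2 -0.09) and TIR1 cells (log2 -0.02) Dnmt1 was not called. Across all 10 groups Dnmt1 ranged 1.59-fold and Uhrf1 2.35-fold, and the treated PDS5AB group was the lowest for both genes.

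Dnmt3l, the cofactor of the de novo enzymes, was the member that differed most with auxin alone. Untreated TIR1 libraries held 137, 128 and 120 CPM and auxin-treated ones 45.1, 34 and 33.5 CPM. All 3 treated values were far below the untreated ones, and Dnmt3l fell by 70.8% (log2 -1.77, SE 0.13, adjusted p = 6.0e-11), across the break in library numbers. Within the set numbered 1 to 21, PDS5AB cells went from 359, 288 and 276 to 205, 201 and 193 CPM (log2 -0.63, SE 0.12, adjusted p = 1.0e-04). PDS5AB-NIPBL cells went from 189, 164 and 200 to 123, 115 and 104 CPM (log2 -0.69, adjusted p = 0.00012), and WAPL-NIPBL cells from 88.8, 68.2 and 69.7 to 57.4, 48.7 and 40.8 CPM (log2 -0.63, adjusted p = 0.0012). The treated and untreated groups were separate in these 3 lines. WAPL cells differed, with 103, 85.8 and 90.4 CPM untreated and 91.8, 84.1 and 71.5 treated, groups that overlapped (log2 -0.17, SE 0.12, adjusted p = 0.31, or 0.039 with the replicate block within line). The size of the auxin response in TIR1 cells thus exceeded that in any degron line, and the tests of those differences are given below.

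Dnmt3a, a de novo methyltransferase, moved in opposite directions in the control and in the single-cofactor lines. TIR1 cells went from 88.5, 77.9 and 80.0 to 60.7, 54.0 and 53.7 CPM with auxin (log2 -0.55, SE 0.09, adjusted p = 5.1e-05). PDS5AB cells went from 151, 119 and 122 to 219, 173 and 161 CPM, a rise of 41.1% (log2 0.50, SE 0.09, adjusted p = 2.7e-05). WAPL cells went from 75.2, 71.3 and 69.4 to 96.8, 103 and 95.5 CPM, a rise of 36.5% (log2 0.45, SE 0.09, adjusted p = 2.0e-04). Treated and untreated groups were separate in these 3 lines, and in PDS5AB and WAPL cells the treated library was higher in all 3 same-numbered pairs. In the combined lines Dnmt3a did not pass the test, at 68.9 ± 2.41 against 64.6 ± 3.04 CPM in PDS5AB-NIPBL cells (log2 -0.09) and at 67.8 ± 2.47 against 60.5 ± 2.25 CPM in WAPL-NIPBL cells (log2 -0.16, adjusted p = 0.31, or 0.014 with the replicate block within line).

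Dnmt3b, the other de novo methyltransferase, was lower after treatment in all 3 same-numbered pairs of each degron line, by small amounts, and in TIR1 cells, whose numbers did not pair libraries. TIR1 cells went from 212, 207 and 191 to 164, 156 and 161 CPM (log2 -0.34, SE 0.09, adjusted p = 0.011, rising to 0.070 at most without the first untreated or the second treated library). WAPL cells went from 167, 155 and 156 to 139, 135 and 125 CPM (log2 -0.26, SE 0.09, adjusted p = 0.034), and 5 of the 6 fits with a library left out lost that call, with adjusted p up to 0.19. The groups of both lines were separate. The log2 differences in PDS5AB (-0.13), PDS5AB-NIPBL (-0.16) and WAPL-NIPBL cells (-0.21) missed the threshold (adjusted p 0.27, 0.28 and 0.20) and passed it with the replicate block within line (0.022, 0.0099 and 0.0013).

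Among the TET genes, Tet2 changed most. Untreated PDS5AB libraries held 196, 213 and 240 CPM and treated ones 115, 122 and 134 CPM, and Tet2 fell by 42.8% (log2 -0.81, SE 0.17, adjusted p = 2.0e-04). WAPL cells went from 198, 273 and 273 to 63.1, 122 and 128 CPM, and Tet2 fell by 57.8% (log2 -1.25, SE 0.17, adjusted p = 8.4e-07). PDS5AB-NIPBL cells went from 213, 288 and 308 to 144, 189 and 195 CPM (log2 -0.61, SE 0.17, adjusted p = 0.008), and the call was lost without the first treated or the third untreated library (adjusted p up to 0.076). WAPL-NIPBL cells went from 272, 295 and 295 to 131, 149 and 157 CPM (log2 -0.98, SE 0.17, adjusted p = 0.00016). Treated and untreated libraries were separate in each of these lines. In TIR1 cells the direction was the other one, from 211, 220 and 254 to 304, 291 and 301 CPM, also with no overlap. That log2 difference of 0.38 (SE 0.16) missed the threshold (adjusted p = 0.099), and it passed with no filter on low counts (7.8e-06) and when the 2 TIR1 groups were fitted alone (0.00046).

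Tet1, the TET gene with the highest level per length, was lower in all 3 same-numbered pairs of each degron line. It fell in PDS5AB cells, from 514, 493 and 528 to 367, 385 and 362 CPM (log2 -0.46, SE 0.18, adjusted p = 0.039), groups with a wide gap. That call ended with any of the 6 libraries left out (adjusted p 0.060 to 0.098), while the 2 groups fitted alone gave 0.00016. In WAPL cells the values were 408, 601 and 633 CPM untreated and 249, 554 and 503 treated, and in PDS5AB-NIPBL cells 463, 716 and 719 against 447, 567 and 555. Replicate 1 was far below the others in these groups, and the log2 differences of -0.33 and -0.27 missed the threshold (adjusted p 0.18 and 0.34). Over the alternative fits the WAPL difference ran from -0.52 to -0.04. Without the second treated WAPL library it passed narrowly (adjusted p = 0.0499). WAPL-NIPBL cells stood at 585, 660 and 656 CPM untreated and 406, 538 and 521 treated (log2 -0.37, adjusted p = 0.24). With the replicate block within line all 3 passed (adjusted p 2.5e-05, 0.0039 and 8.6e-05). TIR1 cells overlapped at 521 ± 47.8 and 551 ± 7.81 CPM (log2 0.08).

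Libraries of WAPL and PDS5AB-NIPBL cells also differed by gene length. A library's deviation from its group mean was correlated with log2 exon length across tested genes that averaged 50 or more counts. The r was -0.30 in untreated and -0.36 in treated WAPL replicate 1, and -0.25 in untreated PDS5AB-NIPBL replicate 1. Genes share a library here and are not independent replicates. In treated PDS5AB-NIPBL replicate 1 r was 0.034, and among the other libraries it ran from -0.19 (untreated TIR1 replicate 2) to 0.33 (treated WAPL replicate 2). Of the 4 members with the most exon bases, Tet1, Tet2 and Tet3 were lower in replicate 1 than in both other libraries of untreated WAPL cells and of treated WAPL cells, and Dnmt3a was not, and the part of length in the replicate 1 values was not tested. Without the libraries numbered 25 to 30, which are replicate 1 of the WAPL and combined lines, Tet1 passed the test in WAPL (log2 -0.22, adjusted p = 0.026), PDS5AB-NIPBL (-0.36, 0.0016) and WAPL-NIPBL cells (-0.31, 0.011). The Tet2 log2 change was then -0.95 in WAPL-NIPBL, -0.63 in PDS5AB-NIPBL and -1.13 in WAPL cells, with the largest adjusted p at 3.0e-05. In the same fit 5 calls were lost, those of Dnmt3b in WAPL cells (adjusted p = 0.12), Dnmt1 in PDS5AB-NIPBL cells (0.16), Dnmt3a in untreated PDS5AB-NIPBL cells (0.078), Dnmt1 in untreated WAPL-NIPBL cells (0.14) and the Dnmt3a response of PDS5AB-NIPBL minus TIR1 cells (0.090). Against untreated TIR1 cells, Tet1 and Tet2 then passed as higher in the WAPL, PDS5AB-NIPBL and WAPL-NIPBL lines (adjusted p at most 0.034), and Uhrf1 as lower in WAPL-NIPBL cells (0.0074). Tet1 also passed in the responses of these 3 lines minus that of TIR1 cells (adjusted p at most 0.027).

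**Figure D4:**
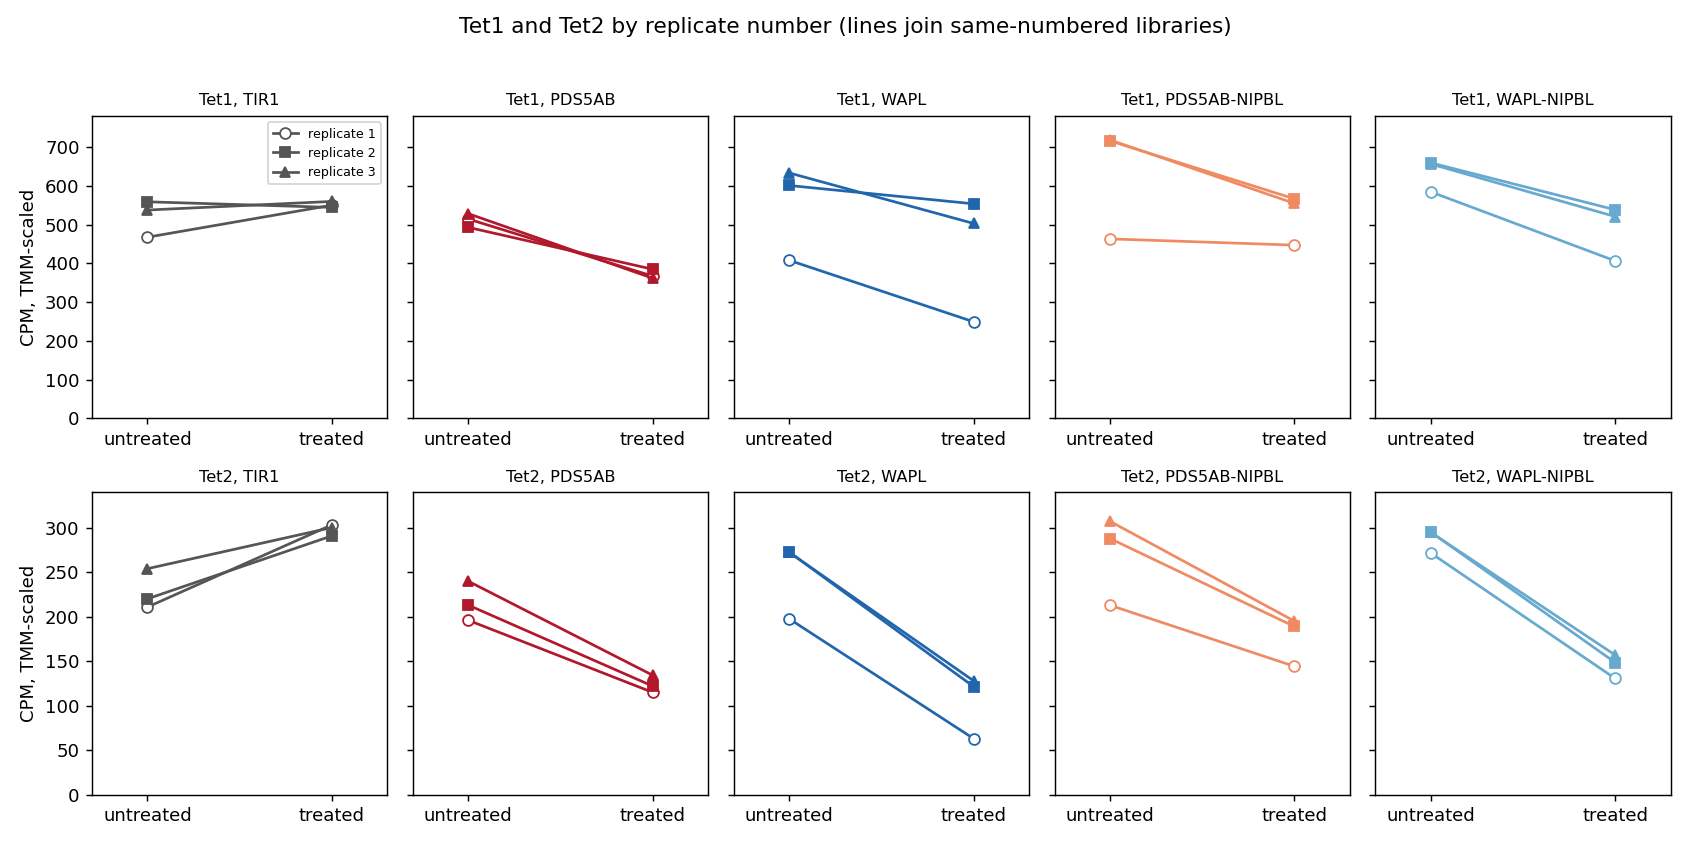
TMM-scaled CPM of Tet1 (top) and Tet2 (bottom) in untreated and treated cells of each line, with lines joining libraries of the same replicate number and open circles for replicate 1. Replicate 1 of the WAPL line starts at 408 CPM for Tet1 and 198 for Tet2, below replicates 2 and 3, and each Tet2 line slopes down in the degron lines and up in TIR1 cells, whose numbers did not pair libraries.

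Tet3, the least abundant TET gene in these cells, rose in PDS5AB and WAPL cells, where Tet2 fell. PDS5AB cells went from 17.5, 17 and 16.9 to 28.6, 19.96 and 22.3 CPM (log2 0.46, SE 0.12, adjusted p = 0.0015), with no overlap. Over the alternative fits that difference ran from 0.29 to 0.57, and it passed with each library left out (adjusted p at most 0.046). WAPL cells went from 18.6, 21.2 and 22.3 to 21, 30.9 and 28.3 CPM (log2 0.38, SE 0.11, adjusted p = 0.011), where replicate 1 after treatment lay within the untreated range. The WAPL call was lost when the 2 groups were fitted alone (adjusted p = 0.059) and without the first untreated or the second treated library (up to 0.092). In PDS5AB-NIPBL cells (22 ± 0.80 to 24.6 ± 0.78 CPM) and WAPL-NIPBL cells (23.0 ± 0.667 to 26.2 ± 0.875 CPM) the groups were separate, but the log2 differences of 0.16 and 0.19 missed the threshold (adjusted p 0.37 and 0.38). TIR1 cells overlapped at 16.2 ± 2.03 and 16.9 ± 1.08 CPM.

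Tdg, the glycosylase that removes oxidised methylcytosine, was the steadiest member. Its group means ran from 32 CPM in treated PDS5AB cells to 43.3 CPM in untreated WAPL-NIPBL cells. The 5 treatment effects lay between -0.05 and 0.05 on the log2 scale, each with an SE of 0.09, and the treated and untreated libraries overlapped in every line. None passed the test, which does not show that Tdg was equal.

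The untreated degron lines already differed from untreated TIR1 cells. In PDS5AB cells Dnmt3l and Dnmt3a were higher and Dnmt3b, Uhrf1 and Dnmt1 lower, so 5 of 9 members were called, against 32% of all genes, within the library numbers 1 to 21. Dnmt3l was higher by 1.26 on the log2 scale (SE 0.12, adjusted p = 1.9e-09) and Dnmt3a by 0.67 (SE 0.09, adjusted p = 4.9e-07). Dnmt3b was lower (log2 -0.58, SE 0.09, adjusted p = 1.3e-05), as were Uhrf1 (-0.35, SE 0.06, adjusted p = 4.3e-05) and Dnmt1 (-0.24, SE 0.07, adjusted p = 0.0048). Dnmt1 libraries overlapped between the 2 groups, and its call was lost when they were fitted alone (adjusted p = 0.067). Tet1 (-0.03), Tet2 (-0.08), Tet3 (0.09) and Tdg (-0.10) were not called.

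In untreated PDS5AB-NIPBL cells 4 of 9 members were called, against 34.3% of all genes. Dnmt3l (log2 0.52, adjusted p = 0.0014) and Tet3 (0.44, adjusted p = 0.0041) were higher, and Dnmt3b (-0.87, SE 0.10, adjusted p = 2.5e-08) and Dnmt3a (-0.25, adjusted p = 0.027, up to 0.17 with a library left out) were lower. Dnmt1 (0.15), Tet1 (0.28), Tet2 (0.24), Uhrf1 (-0.09) and Tdg (0.14) were not called. Dnmt3a thus stood above TIR1 cells in the PDS5AB line and below them in the PDS5AB-NIPBL line. In untreated WAPL cells 3 members were called, against 14%, namely Dnmt3l (-0.46, adjusted p = 0.011), Dnmt3b (-0.35, adjusted p = 0.012) and Tet3 (0.36, adjusted p = 0.041). The Tet3 call was lost with 4 of the 6 libraries left out in turn, the second or the third of either group (adjusted p up to 0.23). Leaving out the first untreated TIR1, or the second or the third untreated WAPL library, ended the Dnmt3b call, the first of these or the second WAPL library ended that of Dnmt3l, and the count fell to 0 without the second WAPL library. Dnmt1 (0.17), Dnmt3a (-0.19), Tet1 (0.07), Tet2 (0.12), Uhrf1 (0.05) and Tdg (0.21) were not called. In untreated WAPL-NIPBL cells 6 were called, against 28%. Dnmt3l (-0.77, adjusted p = 2.8e-05), Dnmt3b (-0.35, adjusted p = 0.0055) and Dnmt3a (-0.28, adjusted p = 0.020) were lower, and Tet3 (0.51, adjusted p = 0.0015), Tdg (0.28, adjusted p = 0.022) and Dnmt1 (0.19, adjusted p = 0.030) were higher, while Tet1 (0.28), Tet2 (0.33) and Uhrf1 (-0.16) were not called. The calls of Dnmt3a, Tdg and Dnmt1 were each lost with 3 or 4 of the 6 libraries left out in turn (adjusted p up to 0.16). Without the second untreated WAPL-NIPBL library 3 members remained called there, Dnmt3b, Dnmt3l and Tet3.

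Dnmt3b was below untreated TIR1 cells in all 4 degron lines, comparisons that share the TIR1 libraries. Those libraries held 212, 207 and 191 CPM, against 173, 149 and 154 in WAPL-NIPBL, 167, 155 and 156 in WAPL, 163, 121 and 123 in PDS5AB and 111, 102 and 119 in PDS5AB-NIPBL cells. No library of a degron line reached the lowest TIR1 library. Over all 10 groups, untreated TIR1 cells had the highest Dnmt3b level and treated PDS5AB-NIPBL cells the lowest, 99.3 ± 6.08 CPM, a 2.04-fold range.

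**Figure D5:**
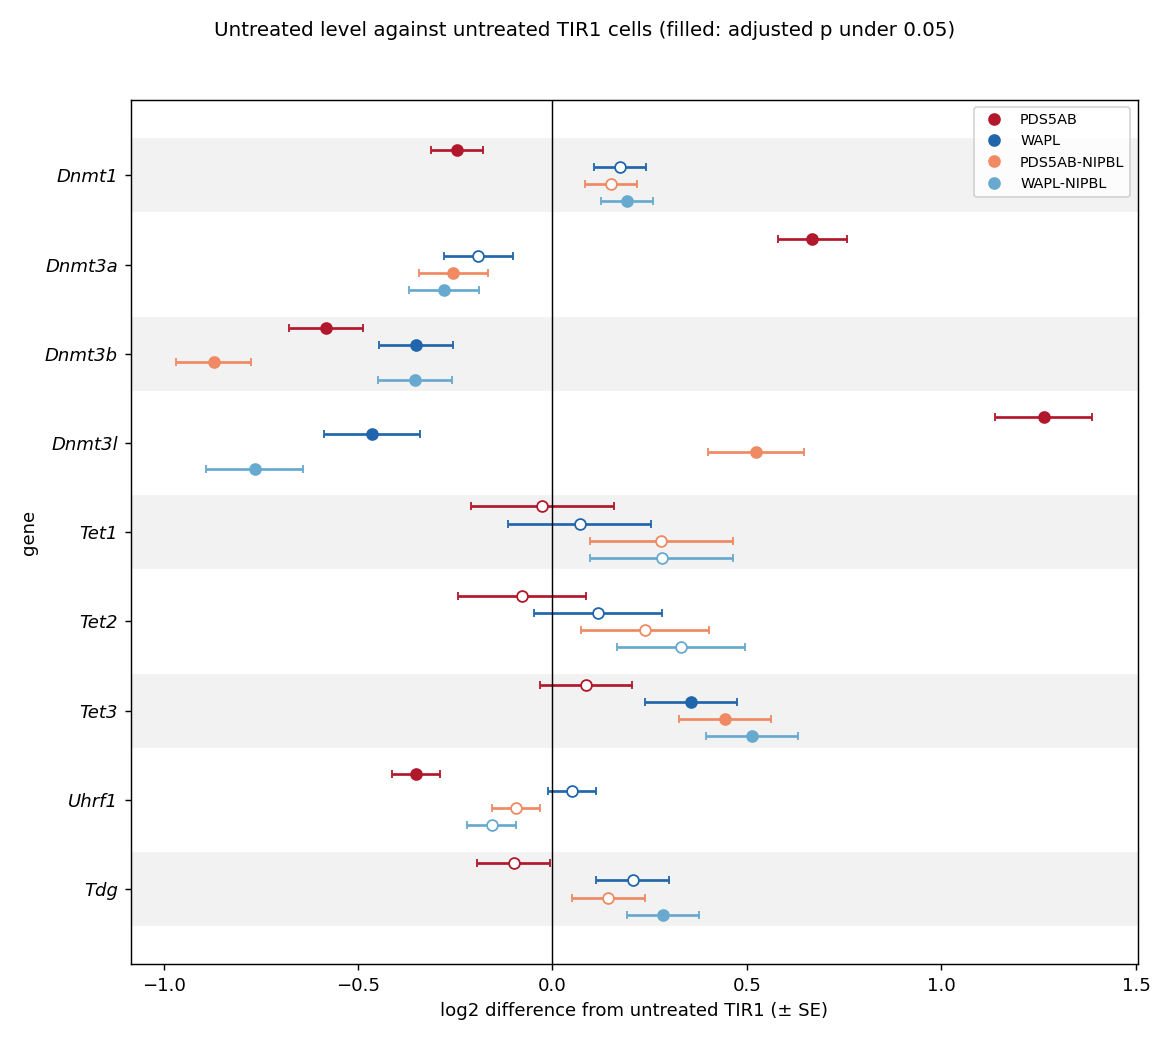
Log2 difference (± SE) of each untreated degron line from untreated TIR1 cells, with filled points at an adjusted p under 0.05. Dnmt3b lies left of 0 in all 4 lines, and Dnmt3l lies right of 0 in the PDS5AB (1.26) and PDS5AB-NIPBL (0.52) lines and left of 0 in the WAPL (-0.46) and WAPL-NIPBL (-0.77) lines.

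The response of each degron line was then set against that of TIR1 cells, which received auxin without a degron. Dnmt3a and Dnmt3l responded more upward, and Tet2 and Uhrf1 more downward, in PDS5AB, WAPL and PDS5AB-NIPBL cells, and these were the 4 members called in each. The share of all genes called was 26.3%, 20.7% and 10.1%. In PDS5AB cells the differences in log2 response were 1.05 (SE 0.13, adjusted p = 3.6e-07) for Dnmt3a, 1.15 (SE 0.18, adjusted p = 1.4e-05) for Dnmt3l, -1.19 (SE 0.23, adjusted p = 0.00032) for Tet2 and -0.81 (SE 0.09, adjusted p = 6.3e-08) for Uhrf1. In WAPL cells they were 1.00, 1.60, -1.63 and -0.41, with adjusted p at most 0.00087. In PDS5AB-NIPBL cells they were 0.46 (adjusted p = 0.018), 1.08 (0.00013), -0.997 (0.0053) and -0.28 (0.041), and only Dnmt3l and Tet2 were called without the first untreated, or the second or the third treated, TIR1 library. The Uhrf1 call was also lost without the third untreated TIR1, the first untreated PDS5AB-NIPBL or the second treated PDS5AB-NIPBL library, and with no filter on low counts (adjusted p = 0.055). That of Dnmt3a was also lost without the second untreated or the first treated PDS5AB-NIPBL library. In WAPL-NIPBL cells Dnmt3l (1.15, adjusted p = 0.00011) and Tet2 (-1.37, adjusted p = 0.00034) were called, against 7.04% of all genes. There the Dnmt3a difference of 0.39 missed the threshold (adjusted p = 0.061), and passed with no filter on low counts (0.046), with the compared groups alone (0.011) and with a block shared by all lines (0.010), and that of Uhrf1 was -0.23 (0.12). In all 4 comparisons the differences of Dnmt1 (-0.21 to -0.07), Dnmt3b (0.08 to 0.21), Tet1 (-0.55 to -0.36), Tet3 (0.10 to 0.39) and Tdg (-0.11 to -0.09) missed the threshold. With no filter on low counts Tet1 passed in all 4, and with the compared groups alone it passed for PDS5AB and WAPL-NIPBL cells. A block shared by all lines gave calls of Tet1 and Dnmt1 for PDS5AB cells. These comparisons share the TIR1 libraries, and the treated TIR1 libraries lie across the break in library numbers. For Dnmt3l a positive difference stands for a smaller fall than in TIR1 cells. Nor did Dnmt3a rise in PDS5AB-NIPBL and WAPL-NIPBL cells, where its own log2 changes of -0.09 and -0.16 missed the threshold.

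The combined lines were also set against the single-cofactor lines. The Dnmt3a response was lower in PDS5AB-NIPBL than in PDS5AB cells by -0.59 on the log2 scale (SE 0.13, adjusted p = 0.0026) and lower in WAPL-NIPBL than in WAPL cells by -0.61 (SE 0.13, adjusted p = 0.0027). The Uhrf1 response was less negative in PDS5AB-NIPBL than in PDS5AB cells by 0.54 (SE 0.09, adjusted p = 0.00018). These were the 2 members called in the first of these comparisons (9.46% of all genes called) and the 1 member called in the second (5.19%). With the replicate block within line Dnmt3l (adjusted p = 0.0016), Tet2 (0.014) and Uhrf1 (0.0091) joined Dnmt3a in the second, 4 members in all. For Tet2 the differences between combined and single-cofactor lines were 0.19 (SE 0.23) and 0.26 (SE 0.23), and for Dnmt3l -0.07 (SE 0.17) and -0.45 (SE 0.18), and these missed the threshold. The Dnmt3l difference between WAPL-NIPBL and WAPL cells also passed with no filter on low counts (adjusted p = 0.0051) and with a block shared by all lines (0.012), whereas between PDS5AB-NIPBL and PDS5AB cells neither gene passed with the block within line (0.10 for Tet2 and 0.60 for Dnmt3l). Between PDS5AB and WAPL cells only the Uhrf1 response was called, more negative in PDS5AB by -0.40 (SE 0.09, adjusted p = 0.0021), where 12.5% of all genes were called, and the block added Dnmt3l (adjusted p = 0.00059) and Tet2 (7.4e-05). Dnmt3l also passed without the first untreated or the third treated WAPL library, which gave 2 members. Over these 3 comparisons the differences of Dnmt1 (-0.07 to 0.08), Dnmt3b (-0.03 to 0.13), Tet1 (-0.13 to 0.19), Tet3 (-0.30 to 0.09) and Tdg (-0.01 to 0.02) missed the threshold.

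Partners of the DNA methyltransferases, 18 genes of recruitment, chromatin remodelling and imprint protection, were lower more often than higher in the degron lines. The test called 2 higher and 11 lower in PDS5AB (median log2 change -0.25, against 0.04 over all genes), 1 and 4 in WAPL-NIPBL (-0.07 against 0.01), 1 and 6 in PDS5AB-NIPBL (-0.12 against 0.00), and 1 and 10 in WAPL cells (-0.20 against 0.00). In TIR1 cells 3 were higher and 4 lower. Of all genes, 46.0%, 8.57%, 19.5% and 32.8% were called in these degron lines, in that order, and 19.9% in TIR1 cells. Prdm14, a regulator of naive pluripotency that represses Dnmt3b, fell from 38.9 ± 2.83 to 14.5 ± 2.06 CPM in PDS5AB cells (log2 -1.42, adjusted p = 4.8e-14). It fell by 0.68 in WAPL-NIPBL, by 1.01 in PDS5AB-NIPBL and by 1.27 in WAPL cells, and stood at 0.07 in TIR1 cells (adjusted p = 0.57). Uhrf2, the paralog of Uhrf1, rose in WAPL cells from 44.6 ± 5.56 to 65.4 ± 5.17 CPM (log2 0.55, adjusted p = 6.3e-06) and also in TIR1 (0.50, adjusted p = 9.0e-05) and WAPL-NIPBL cells (0.28, adjusted p = 0.036). Dppa3, which protects imprinted methylation and restrains UHRF1, rose with auxin in TIR1 cells from 7.09 ± 1.95 to 20.2 ± 3.45 CPM (log2 1.51, adjusted p = 1.4e-06) and fell in WAPL cells (-0.77, adjusted p = 0.0044).

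Another list held 9 genes from protein families that include readers of methylated DNA, and binding by each protein was not examined here. The test called 5 of the 9 higher and 0 lower in TIR1 cells, with a median log2 change of 0.26 against -0.01 over all genes. It called 3 higher in WAPL, 2 higher and 1 lower in PDS5AB, 0 in WAPL-NIPBL and 2 higher in PDS5AB-NIPBL cells, with medians of 0.08, 0.00, 0.04 and 0.11. The share of all genes called was 19.9% in TIR1 (10.4% higher), 46.0% in PDS5AB, 32.8% in WAPL, 8.57% in WAPL-NIPBL and 19.5% in PDS5AB-NIPBL cells. In PDS5AB cells the count of this list is below that share, and in WAPL and PDS5AB-NIPBL cells it is near it. Zbtb4, a zinc finger protein that binds methylated CG, rose in PDS5AB cells from 5.40 ± 0.703 to 11 ± 1.67 CPM (log2 1.03, adjusted p = 1.1e-06) and in WAPL cells from 4.88 ± 0.626 to 8.61 ± 0.476 (0.83, adjusted p = 6.4e-05). Mbd3, a subunit of the NuRD complex, fell in PDS5AB cells from 124 ± 17.3 to 84.9 ± 13.5 CPM (log2 -0.55, adjusted p = 0.00019).

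A further list held 19 genes that remove oxidised or deaminated bases, act in base excision repair, or act with TET enzymes, as in making their cosubstrate. Of these, 6 rose and 8 fell in PDS5AB cells (median log2 change 0.01, against 0.04 over all genes). The counts were 1 and 4 in WAPL (-0.15 against 0.00), 0 and 2 in PDS5AB-NIPBL (-0.03 against 0.00), 1 and 1 in WAPL-NIPBL (0.00 against 0.01), and 2 and 0 in TIR1 cells (0.01 against -0.01). The shares of all genes called were 46.0% in PDS5AB, 32.8% in WAPL, 19.5% in PDS5AB-NIPBL, 8.57% in WAPL-NIPBL and 19.9% in TIR1 cells. In WAPL, PDS5AB-NIPBL and TIR1 cells the counts of this list are below those shares, and in WAPL-NIPBL cells near it. Ung, the uracil glycosylase, fell in the 4 degron lines, by 0.66 in WAPL, 0.38 in WAPL-NIPBL, 0.57 in PDS5AB and 0.52 in PDS5AB-NIPBL cells on the log2 scale (adjusted p at most 0.0085). Idh1, which makes the 2-oxoglutarate that TET enzymes consume, fell in WAPL cells from 222 ± 20.7 to 128 ± 11.2 CPM (log2 -0.79, adjusted p = 6.0e-08). Apex1, the abasic site nuclease, fell in PDS5AB cells by 0.74 on the log2 scale, but 61.7% of its exon bases are shared with Pip4p1 on the other strand, so that value is uncertain.

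The methyl donor cycle, 13 genes that make S-adenosylmethionine and the folate-bound methyl group, gave 0 higher and 9 lower in PDS5AB cells (median log2 change -0.32, against 0.04 over all genes). It gave 0 and 4 in WAPL (-0.09 against 0.00), 0 and 6 in PDS5AB-NIPBL (-0.11 against 0.00), 1 and 2 in WAPL-NIPBL (-0.03 against 0.01), and 3 and 1 in TIR1 cells (-0.01 against -0.01). In WAPL cells that count is near the background, where 32.8% of all genes passed the test. With auxin in TIR1 cells the background was 19.9%. It was 8.57% for the WAPL-NIPBL line, 46.0% for the PDS5AB line and 19.5% for the PDS5AB-NIPBL line. Shmt1, the cytosolic serine hydroxymethyltransferase, fell in PDS5AB cells from 168 ± 6.85 to 85.6 ± 2.06 CPM (log2 -0.98, adjusted p = 4.2e-14). It fell by 0.21 in WAPL-NIPBL, by 0.44 in PDS5AB-NIPBL and by 0.62 in WAPL cells, and its log2 difference in TIR1 cells was -0.11 (adjusted p = 0.18). Some members of this list are also genes of dividing cells, and S phase genes moved alongside: 15 of 15 fell in PDS5AB cells, 13 in WAPL cells, 5 in WAPL-NIPBL and 10 in PDS5AB-NIPBL cells, with median log2 changes of -0.40, -0.42, -0.18 and -0.25, against 0.04, 0.00, 0.01 and 0.00 over all genes. Of all genes, 20.2%, 15.8%, 3.45% and 8.06% were called lower there. In TIR1 cells 2 of the 15 rose and 7 fell, where 10.4% of all genes were called higher and 9.59% lower. Uhrf1 and Dnmt1 are expressed most in S phase, and the part of the cell cycle in their change was not tested.

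Germline genes that promoter methylation is known to hold silent, 15 of 16 tested, rose in part. The test called 8 higher and 0 lower in PDS5AB, 8 and 1 in WAPL, 7 and 0 in WAPL-NIPBL and 4 and 0 in PDS5AB-NIPBL cells, with median log2 changes of 0.47, 0.38, 0.47 and 0.29. Of all genes, 25.8%, 17%, 5.11% and 11.4% were called higher there. In TIR1 cells 4 were higher and 2 lower (median -0.04), where 19.9% of all genes were called. Brdt, a testis bromodomain gene, rose in PDS5AB cells from 2.67 ± 0.326 to 8.80 ± 0.461 CPM (log2 1.73, adjusted p = 1.2e-07). It also rose with auxin in TIR1 cells (1.23, adjusted p = 0.00038) and in WAPL-NIPBL cells (1.11, adjusted p = 0.0012), and did not pass the test in WAPL (0.19, adjusted p = 0.56) or PDS5AB-NIPBL cells (0.67, adjusted p = 0.11). Tex101 rose in PDS5AB-NIPBL cells from 1.75 ± 0.66 to 5.42 ± 1.26 CPM (log2 1.60, adjusted p = 1.9e-06), and also in PDS5AB (1.59, adjusted p = 4.5e-08), WAPL (0.67, adjusted p = 0.0049) and WAPL-NIPBL cells (0.65, adjusted p = 0.024). Its log2 difference in TIR1 cells was 0.46 (adjusted p = 0.053). These levels remained low beside those of the members.

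Naive pluripotency genes fell together with Tet2 in the degron lines, 10 of 10 in PDS5AB cells and 8 of 10 in each of the other 3, with median log2 changes of -0.79, -0.56, -0.50 and -0.45. Of all genes, 20.2% were called lower in PDS5AB cells, and 15.8%, 8.06% and 3.45% in WAPL, PDS5AB-NIPBL and WAPL-NIPBL cells. In TIR1 cells 2 rose and 4 fell, where 19.9% of all genes were called. Zfp42, a naive marker, went from 691 ± 59.1 to 281 ± 22 CPM in PDS5AB cells (log2 -1.30, adjusted p = 3.5e-14). The 9 formative epiblast genes, which come up as naive cells prepare to differentiate, went both ways, with 2 higher and 3 lower in PDS5AB and in WAPL cells, 2 and 2 in each combined line, and 1 and 3 in TIR1 cells, where their median of -0.59 was the lowest of the 5 lines. In PDS5AB cells 5 of 9 lies near the 46.0% of all genes called, and the shares called in WAPL, PDS5AB-NIPBL, WAPL-NIPBL and TIR1 cells were 32.8%, 19.5%, 8.57% and 19.9%. Lef1 rose in WAPL cells from 6.46 ± 0.874 to 28.6 ± 2.02 CPM (log2 2.14, adjusted p = 2.6e-10), and it also rose with auxin in TIR1 cells (2.09, adjusted p = 2.5e-07). Otx2 fell in WAPL cells from 6.02 ± 0.743 to 2.45 ± 0.93 CPM (log2 -1.28, adjusted p = 5.4e-05) and in each of the other lines, where its log2 change was -1.19 in TIR1 (adjusted p = 0.00033), -1.14 in WAPL-NIPBL (0.0014), -1.04 in PDS5AB-NIPBL (0.0059) and -0.98 in PDS5AB cells (0.0015). Dnmt3a and Dnmt3b are known to rise in that transition, and here Dnmt3a rose in PDS5AB and WAPL cells while Dnmt3b did not.

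Among the members, the profiles over the 10 group means are compared as a description, because groups of a line share a clone and same-numbered libraries. Tet1 and Tet2 had r = 0.89, Dnmt1 and Tdg 0.91 and Dnmt1 and Uhrf1 0.80. Uhrf1 was about as similar to Tet1 (0.79) and Tet2 (0.71), while Dnmt1 and Dnmt3a had -0.85. Tet3 ran against Tet2 at -0.63. Among 12932 genes that averaged 50 or more counts, the non-member with the profile most like Tet2 was Parg (r = 0.98), followed by Hunk (0.95). For Uhrf1 these were Chtop and Wwp2 (0.99 each), for Dnmt1 Sf1 (0.99) and Cpsf1 (0.98), and for Dnmt3l Polrmt and Ldha (0.97 each). For Dnmt3a they were Cacng6 (0.98) and Ccpg1os (0.97), for Dnmt3b Cabp7 and Tst (0.96 each), and for Tet1 Traf3ip1 (0.99) and Tenm1 (0.97). Tet3 was most like Stat5a and Cdc42ep2 (0.98 each), and Tdg most like Scd2 and Ankrd11 (0.98 each). Cabp7 shares 12.9% of its exon bases with the more abundant Zmat5, so its profile is uncertain.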

How the data were processed

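Messenger RNA was measured in 30 polyA libraries of mouse embryonic stem cells, 3 in each of 10 groups taken from the sample labels. The labels list the molecule as genomic DNA while their protocol prepares polyA RNA, and the libraries were treated as RNA here. The authors deposited raw fragment counts per gene, made with featureCounts 2.0.1 in paired-end mode on GENCODE vM23 exons without a strand option, per the file headers. STAR 2.7.7a, cutadapt and the build GRCm38 are named in the submitters' processing notes. No option for fragments that map to several places or genes is recorded in the header, and by that program's default such fragments are dropped.

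Identifiers were matched to symbols (55154 of 55421, 99.5%). Counts of all 30 libraries were fitted in edgeR 4.0.16 (R 4.3.3) with a mean for each group, filterByExpr (minimum count 10, which left 19868 genes), TMM factors of 0.950 to 1.13 and 20 residual degrees of freedom. The quasi-likelihood F-test was adjusted by Benjamini-Hochberg over all 19868 genes in each of 16 comparisons, with calls at an adjusted p under 0.05. SEs of log2 fold changes were derived from F. Levels are TMM-scaled CPM, also given per kb of exon. The fit was tested on simulated data. Totals of 19632704 to 45539021 fragments set the counting precision.

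Replicate numbers come from the labels. Same-numbered untreated and treated libraries deviated together in the 4 degron lines (every r at least 0.38 across genes) but not in TIR1 cells (0.012 to 0.22), so the numbers were taken to pair samples in the degron lines, and a fit with the number as a block within line is given where it changes a call. Other alternatives were RLE size factors, no filter on low counts, DESeq2 1.42.0, the compared groups alone, a 2-fold minimum (glmTreat), a block shared by all lines and leaving out each library. Leaving out the libraries numbered 25 to 30 was added after seeing the data. Promoters were read from a RefSeq table (GRCm38.p6) that held all 9 members, and protein sequences were not used here. All 9 members are named in every comparison. From each list of partners, readers, removal genes and methyl donors the most changed called gene in each direction was eligible, with examples from the other lists, and for each member the 2 most similar profiles are given. The members and lists were chosen with earlier results of these data known.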

Additional observations from a re-analysis of the deposited data

Results flagged for a closer look

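A direct test of the difference between lines found 18 member responses that differed. Against the auxin response of TIR1 cells, the log2 response of Dnmt3a differed by 1.05 in PDS5AB, 1.00 in WAPL and 0.46 in PDS5AB-NIPBL cells. That of Dnmt3l differed by 1.60 in WAPL, 1.15 in PDS5AB, 1.15 in WAPL-NIPBL and 1.08 in PDS5AB-NIPBL cells. The Tet2 response differed by -1.63 in WAPL, -1.19 in PDS5AB, -1.37 in WAPL-NIPBL and -0.997 in PDS5AB-NIPBL cells, and the Uhrf1 response by -0.81 in PDS5AB, -0.41 in WAPL and -0.28 in PDS5AB-NIPBL cells. These 14 differences share the TIR1 libraries, of which the treated ones lie across the break in library numbers.

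Between degron lines the Dnmt3a response differed by -0.59 (PDS5AB-NIPBL minus PDS5AB) and by -0.61 (WAPL-NIPBL minus WAPL). The Uhrf1 response differed by 0.54 (PDS5AB-NIPBL minus PDS5AB) and by -0.40 (PDS5AB minus WAPL). Groups of 3 libraries were not tested for single outlying values.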

How the results depend on the processing

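No alternative reversed a called member. With a 2-fold minimum the number of members called was 1 for the auxin effect in TIR1 cells and for the WAPL minus TIR1 responses, Dnmt3l in both, and 0 in the other 14 comparisons, a stricter test by construction. With the replicate block within line the number became 8 for the WAPL effect, 6 for the WAPL-NIPBL effect, 8, 7 and 5 for the PDS5AB, PDS5AB-NIPBL and WAPL-NIPBL responses minus that of TIR1, 4 for WAPL-NIPBL minus WAPL and 3 for PDS5AB minus WAPL, in fits that called 8960, 4152, 7983, 4996, 4436, 3070 and 5423 of all genes. A replicate block shared by all lines gave 2 and 3 in these last 2. No filter on low counts gave 4 for WAPL-NIPBL minus TIR1, 2 for WAPL-NIPBL minus WAPL and 3 for PDS5AB minus WAPL, the compared groups alone gave 4 for WAPL-NIPBL minus TIR1, and the set without the libraries numbered 25 to 30 gave 5 for untreated WAPL against TIR1. The cause was not tested. TIR1 numbers did not pair, so block values that involve TIR1 are not paired results.

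Leaving out each library in turn gave 2 to 3 members for the auxin effect in TIR1 cells, 5 to 7 for PDS5AB, 3 to 5 for WAPL, 2 to 3 for PDS5AB-NIPBL and 2 to 3 for WAPL-NIPBL. For the untreated lines it gave 5 in every fit (PDS5AB), 0 to 3 (WAPL), 3 to 4 (PDS5AB-NIPBL) and 3 to 6 (WAPL-NIPBL). For responses minus that of TIR1 it gave 4 to 5 (PDS5AB), 4 to 5 (WAPL), 2 to 4 (PDS5AB-NIPBL) and 2 in every fit (WAPL-NIPBL). It gave 2 and 1 in every fit for the combined minus the single-cofactor lines and 1 to 2 for PDS5AB minus WAPL. DESeq2 changed 1 of the 144 member calls and RLE size factors changed 1.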
